A study of Flaveria bidentis and Flaveria robusta with 100 samples.

Results

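PGR5 and the PGRL1 proteins carry one of the routes of cyclic electron flow in chloroplasts, and their transcripts were followed here through day, night and constant light in leaves of 2 Flaveria species. The genes were chosen by their Arabidopsis identifiers, PGR5 (AT2G05620), PGRL1A (AT4G22890) and PGRL1B (AT4G11960). Of these 3 genes, PGR5 and PGRL1B are among the 21869 genes listed, and PGRL1A was not analysed here. Both passed the filter on low values.

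Mature leaves came from Flaveria bidentis, a species with C4 photosynthesis, and from Flaveria robusta, a relative with C3 photosynthesis, and the design compares their daily transcript programmes. Every plant had 36 days of greenhouse growth and then 6 days in a controlled chamber, lit for 10 h at 22 °C and dark for 14 h at 20 °C. Leaves were taken every 4 h, over 2 days of constant light (LL, 13 time points, the last at ZT00 of day 3) that followed 2 days of light and dark (LD, 12 time points), with 2 biological replicates at each of the 50 combinations. ZT counts the hours from lights on, or from the matching clock hour in LL. In LD the leaves at ZT12, ZT16 and ZT20 were thus dark and those at ZT04 and ZT08 lit. ZT00 fell at the change from dark to light. Darkness in LD came with 20 °C and light with 22 °C. The temperature of the lit nights of LL is not stated here, and its part in comparisons of lit with dark nights was not tested. Each photosynthesis type is represented by 1 species, and LL always came after LD, so C4 cannot be told apart from any other trait of F. bidentis, nor LL from the later sampling days.

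Light reactions normally pass electrons through photosystem I and ferredoxin to NADP+. In cyclic electron flow they return from ferredoxin to plastoquinone instead, which moves protons and so gives ATP without net NADPH. In Arabidopsis this return runs by a path that needs PGR5, a small protein on the stroma side, and PGRL1, a thylakoid membrane protein that binds it, and by another path through the chloroplast NDH complex. C4 photosynthesis costs more ATP for each CO2 fixed than C3 photosynthesis, and the bundle sheath cells of C4 plants of the NADP-malic enzyme type, such as F. bidentis, are known for cyclic flow. In Arabidopsis PGR5 also protects photosystem I when light changes.

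Values are the authors' averages, in RPM (reads scaled to a fixed library total), over the libraries of a time point. Their columns sum to between 999417.5 and 1000090, depth and spread of single libraries were not used, and each p-value below measures the scatter of time-point averages around a model. Tests were run by limma on log2(RPM + 1) over 13563 genes averaging 1 RPM or more, with Benjamini-Hochberg adjusted p and a threshold of 0.05. Because columns share 1 total, a few abundant genes can shift the others, and rescaling by a trimmed mean of M values (TMM) gave factors of 0.8 to 1.36. In 6 F. robusta averages (LD2 ZT12, LD2 ZT16, LL2 ZT04, LL2 ZT08, LL2 ZT20 and LL3 ZT00) the 10 most abundant genes held under 11% of the RPM, where that share was 9.43 to 17.3% over all F. bidentis averages and 8.26 to 20.4% over all those of F. robusta. These 6 are called the averages of unusual composition below, a choice made after seeing the data and applied to F. robusta alone. In F. bidentis LD1 ZT12, LD1 ZT16 and LD2 ZT12 were also under 11%, and they were left out only one at a time. Of 6 mature leaf markers 3 were listed, and they summed to 4322 to 23377 RPM (F. bidentis) and 11585.5 to 53511 RPM (F. robusta). Flower markers (4 genes, 1 of them at 0 throughout) summed to at most 21.5 and 78 RPM in these species, root markers (4, 1 at 0) to 18 and 13.5, guard cell markers (3 listed) to 29.5 and 33, and seed markers (3 listed, 2 at 0) to 0 and 0.5 RPM. Vascular markers (4) reached 430 and 565 RPM, dividing cell markers (3 listed) 64.5 and 17 RPM, and the 1 listed senescence marker 102 and 62 RPM, and their part in the results was not tested.

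PGR5 was a morning transcript in both species and lowest in the dark, at ZT12 on both LD days in F. bidentis and at ZT16 on both in F. robusta. In F. bidentis it measured 545, 442.5, 172, 35.5, 51 and 352.5 RPM from ZT00 to ZT20 of LD day 1, and 568.5, 609, 154.5, 36.5, 45.5 and 374 RPM on LD day 2. In F. robusta it measured 390, 441.5, 104.5, 19.5, 14 and 122 RPM on LD day 1, and 472, 345.5, 89, 30, 15 and 175 RPM on LD day 2. The days repeated closely: at the same hour they differed by a median of 0.12 log2 units in F. bidentis (0.04 to 0.46 over 6 hours), while in F. robusta that median was 0.31 (0.09 to 0.60). The highest value of LD days 1 and 2 was 15.4 and 16.7 times the lowest in F. bidentis, and 31.5 times on each day in F. robusta.

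**Figure D1:**
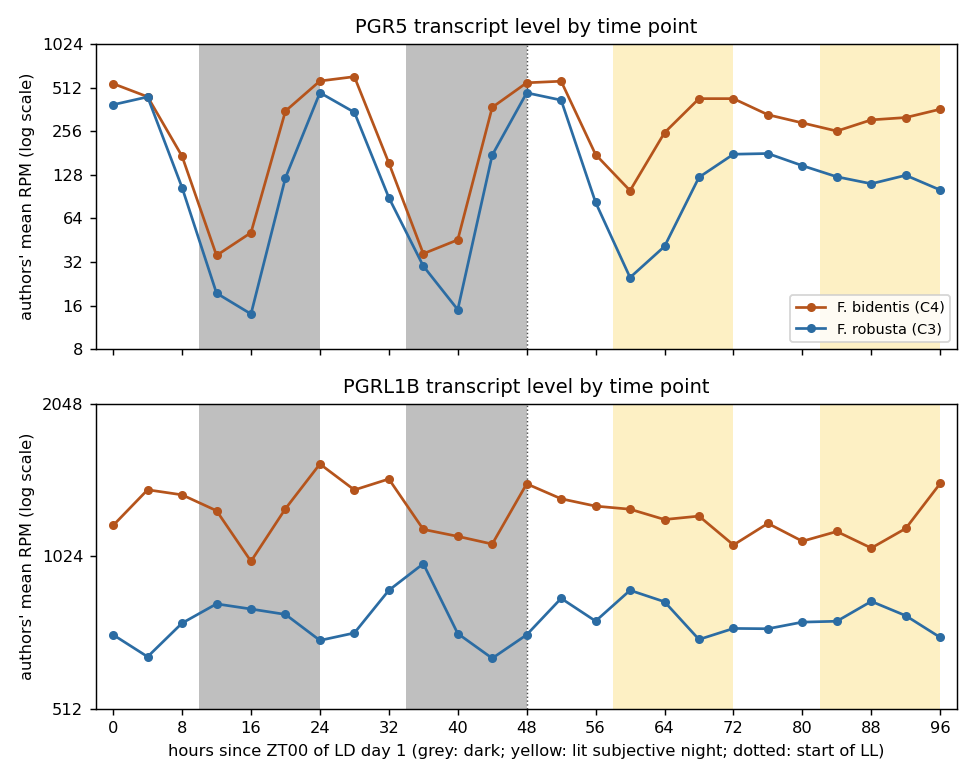
Transcript levels of PGR5 (top) and PGRL1B (bottom) as the authors' averaged RPM on a log axis against hours since the start of LD day 1, in F. bidentis (orange) and F. robusta (blue). Grey marks darkness, yellow the lit nights of LL and the dotted line the start of LL; PGR5 falls to 35.5 RPM in dark F. bidentis leaves and 14 RPM in dark F. robusta leaves, while PGRL1B stays between 1000.5 and 1556.5 RPM (F. bidentis) and between 644 and 989.5 RPM (F. robusta).

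Fitted with a 24 h cosine, the PGR5 rhythm in LD spanned 4.44 log2 units from trough to peak in F. bidentis (SE 0.31; limma, adjusted p = 5.24e-06). The span in F. robusta was 5.19 (SE 0.32; adjusted p = 4.19e-07). The fitted peak came 1.26 h (SE 0.27) after lights on in F. bidentis, and 1.91 h (SE 0.22) after it in F. robusta. A rhythm in LD was common in these leaves, with 67.3% of all genes called in F. bidentis and 65.4% in F. robusta, so the call itself does not set PGR5 apart. By size its F. bidentis span ranked 54 of 13563, and its F. robusta span 23. The test of the species difference in rhythm did not pass (-0.75 log2 units in span, adjusted p = 0.314, with 9.03% of all genes passing), which does not show that the rhythms are equal.

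PGRL1B, the membrane partner, swung far less than PGR5. In F. bidentis it measured 1177.5, 1384.5, 1353, 1259, 1000.5 and 1270.5 RPM from ZT00 to ZT20 of LD day 1 and 1556.5, 1383.5, 1454, 1156.5, 1120.5 and 1082 RPM on LD day 2. In F. robusta it measured 716.5, 648.5, 755.5, 824.5, 805.5 and 786 RPM on LD day 1 and 698.5, 722.5, 877, 989.5, 720.5 and 644 RPM on LD day 2. The highest values came at ZT04 and ZT00 in F. bidentis and at ZT12 on both days in F. robusta. In F. bidentis the fitted span was 0.43 log2 units (SE 0.14; limma, adjusted p = 0.0503), at the threshold, and after TMM it was 0.99 and passed (adjusted p = 0.00314). The F. robusta span was 0.35 (SE 0.16, limma, adjusted p = 0.157). By size the PGRL1B spans ranked 11551 (F. bidentis) and 12021 (F. robusta) of 13563 as deposited, and 3257 and 7621 after TMM. The species difference in this rhythm did not pass (adjusted p = 0.12).

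Since PGR5 swung far more widely than PGRL1B, their ratio moved through the day. RPM are not divided by transcript length, so the ratio is read here only against itself at other hours. On the log2 scale PGR5 over PGRL1B lay between -5.11 (LD1 ZT12) and -1.11 (LD1 ZT00) in LD leaves of F. bidentis, and between -5.75 (LD1 ZT16) and -0.55 (LD1 ZT04) in those of F. robusta. In LL its extremes were -3.66 and -1.23 for F. bidentis, and -5.08 and -0.60 for F. robusta, all on LL day 1.

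PGR5 also changed while the light did not. Between ZT04 and ZT08, both lit in LD, it was lower at ZT08 by 1.84 log2 units over both species and days (limma with species and day as blocks, -1.84, SE 0.16, adjusted p = 1.07e-05), while PGRL1B differed by 0.13 (adjusted p = 0.624). Over all genes 4.9% were higher and 3.41% lower at ZT08. Between ZT16 and ZT20, both dark, PGR5 was higher at ZT20 by 3.07 log2 units (SE 0.15, adjusted p = 1.92e-05) and PGRL1B differed by 0.02 (adjusted p = 0.931). Here 1.53% of all genes were higher and 2.74% lower at ZT20 (207 and 372 genes, and 264 and 105 after TMM). In darkness PGR5 thus stood at 352.5 and 374 RPM at ZT20 in F. bidentis, against 51 and 45.5 RPM at ZT16. Both of these contrasts were chosen after the profiles had been seen.

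As deposited, F. bidentis leaves held more of both transcripts than F. robusta leaves at all 12 LD and all 13 LL time points. At LD1 ZT04 PGR5 was nearly equal, with 442.5 RPM in F. bidentis and 441.5 RPM in F. robusta. After TMM it was lower in F. bidentis there, at 493 against 535 RPM. The share of all genes higher at every time point was not counted. In LD the matched difference was 0.84 log2 units for PGR5 (SE 0.14, 95% interval 0.54 to 1.15; limma, adjusted p = 9.68e-05) and 0.72 for PGRL1B (SE 0.09, interval 0.54 to 0.91; adjusted p = 2.19e-06). Species differences were widespread, with 32.3% of all genes higher and 32.5% lower in F. bidentis, and the values of PGR5 and PGRL1B ranked 1357 and 1726 of 13563 from the most positive. In LL the difference was 1.30 for PGR5 (SE 0.16, interval 0.97 to 1.63; adjusted p = 8.76e-07) and 0.66 for PGRL1B (SE 0.07, interval 0.50 to 0.81; adjusted p = 3.27e-07), where 26% of genes were higher and 41.8% lower (3521 and 5668 genes, and 4794 and 4867 after TMM). Over LD, PGR5 averaged 282 RPM in F. bidentis, against 185 RPM in F. robusta, and PGRL1B 1267 RPM, against 766 RPM. In whole leaves, fewer cells of a type and less RNA per cell cannot be told apart. How the reads of each species were assigned to Arabidopsis genes is not given. A species difference in that assignment cannot be told apart from one in level, here and for the other genes below.

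As deposited, the PGRL1B ranges of the species lay just apart over the 50 values. They were 1000.5 to 1556.5 RPM for F. bidentis and 644 to 989.5 RPM for F. robusta. After TMM they overlapped, with 791 RPM for F. bidentis at LD1 ZT16 and 1016 RPM for F. robusta at LD2 ZT08. The share of all genes with ranges apart was not counted. In LD the log2 difference of PGRL1B stayed between 0.22 (LD2 ZT12) and 1.15 (LD2 ZT00). For PGR5 the ranges over the day overlapped widely and the difference varied with the hour. It was 0.00 at LD1 ZT04, where PGR5 had 442.5 RPM in F. bidentis and 441.5 RPM in F. robusta, and 1.79 at LD1 ZT16, where it had 51 and 14 RPM. At ZT16 and ZT20 of the LD nights it was 1.09 to 1.79, and at ZT00 of the LD days 0.27 to 0.48. Without the time point as a term the large daily swing enters the error, and the LD difference of PGR5 then did not pass (adjusted p = 0.327).

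**Figure D2:**
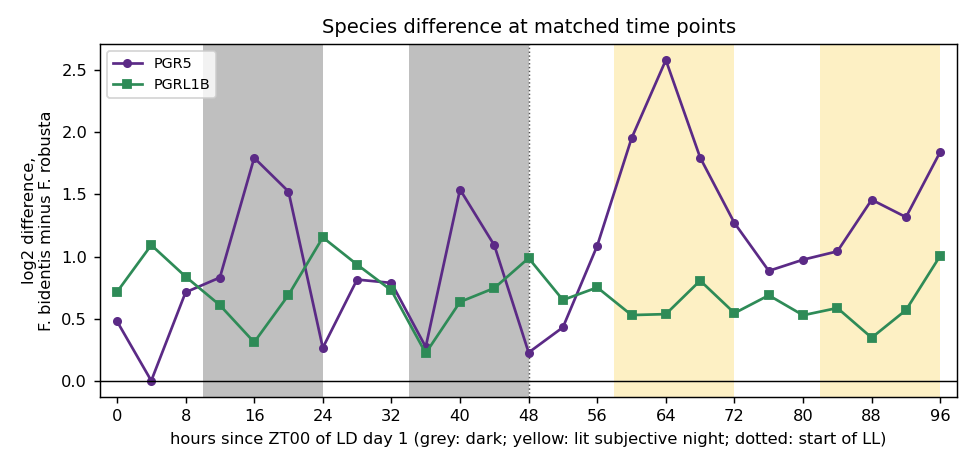
Log2 difference (F. bidentis minus F. robusta) of RPM + 1 at each matched time point for PGR5 (purple circles) and PGRL1B (green squares), against hours since the start of LD day 1, with darkness in grey and lit nights in yellow. No point lies below 0; PGR5 reaches 2.58 at LL1 ZT16, while PGRL1B stays between 0.22 and 1.15.

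In the lit nights of LL, PGR5 stood higher in F. bidentis than in its dark nights. It measured 99.5, 250 and 429.5 RPM at ZT12, ZT16 and ZT20 of LL day 1 and 256.5, 306.5 and 318 RPM on LL day 2, against 35.5, 51 and 352.5 RPM and 36.5, 45.5 and 374 RPM in LD. The ZT12 and ZT16 values of LL all lay above those of LD, and the ZT20 values overlapped. Over the 3 hours PGR5 rose by 1.55 log2 units (SE 0.38, 95% interval 0.71 to 2.38; limma, adjusted p = 0.00804). In that comparison 5.54% of all genes were higher in the light and 35.4% lower, with a median of -0.21 log2 units over all genes (751 higher and 4804 lower, and 1997 and 2071 after TMM).

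In F. robusta PGR5 measured 25, 41 and 123 RPM in the night of LL day 1 and 124, 111 and 127 RPM on LL day 2, against 19.5, 14 and 122 RPM and 30, 15 and 175 RPM in the dark nights. At ZT12 of LL day 1 and at ZT20 of both LL days it lay within the LD values, and it stood above them at ZT12 of LL day 2 and at ZT16 of both LL days. The difference of 1.03 log2 units (SE 0.43, interval 0.09 to 1.97) did not pass (limma, adjusted p = 0.147), where 1.3% of all genes were higher and 5.01% lower (176 and 680 genes, and 347 and 205 after TMM). The responses were not shown to differ between species, at 0.51 log2 units (SE 0.64, interval -0.82 to 1.85; adjusted p = 0.82), with 0.28% of genes more positive in F. bidentis and 0.752% less. At ZT16 of LL day 1 PGR5 had 250 RPM in F. bidentis and 41 RPM in F. robusta, 5.98 times as much on the RPM + 1 scale.

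PGRL1B stayed level in the lit nights, at 1062.5 to 1267.5 RPM in F. bidentis, against 1000.5 to 1270.5 RPM in its dark nights, a difference of 0.04 log2 units (SE 0.08, interval -0.13 to 0.22; limma, adjusted p = 0.718). After TMM, which moved the median of all genes to -0.00, this became 0.28 and passed (adjusted p = 0.0258). In F. robusta PGRL1B had 701.5 to 877 RPM in the lit nights and 644 to 989.5 RPM in the dark nights, a difference of 0.01 (adjusted p = 0.953).

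**Figure D3:**
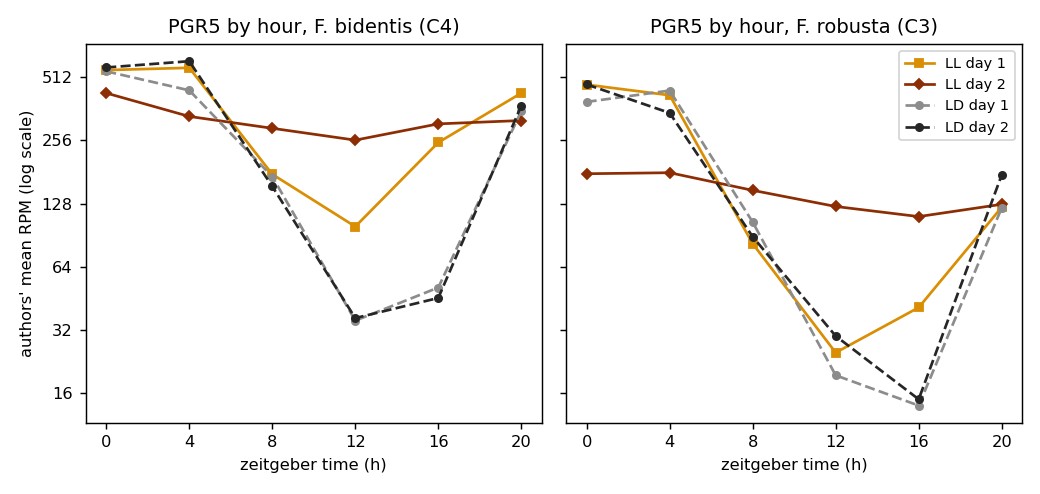
PGR5 as the authors' averaged RPM on a log axis against ZT in hours, F. bidentis left and F. robusta right, with LL day 1 (squares), LL day 2 (diamonds) and LD days 1 and 2 (grey and black circles). LL day 1 lies close to LD from ZT00 to ZT08 in both species; LL day 2 is shallow, between 256.5 and 429.5 RPM for F. bidentis and between 111 and 179.5 RPM for F. robusta.

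The daily swing of PGR5 narrowed in LL. In F. bidentis its range was 3.90 and 4.02 log2 units on the LD days, then 2.50 on LL day 1 and 0.74 on LL day 2. The F. robusta range was 4.88 and 4.89 on the LD days, then 4.18 on LL day 1 and 0.69 on LL day 2. After TMM the LL day 2 ranges were 0.88 and 0.94. Over LL as a whole the fitted 24 h span was 1.38 in F. bidentis (SE 0.32; limma, adjusted p = 0.246). For F. robusta it was 2.14 (SE 0.61; adjusted p = 0.313; 3.36 and 0.144 without the averages of unusual composition). Unadjusted, these p were 0.00325 and 0.0137, and by limma 0% of all genes passed in either species, with 2612 and 1788 genes at unadjusted p under 0.05. The first 3 time points of LL came before its first lit night. From ZT12 of LL day 1 on the spans were 1.03 and 1.26. PGRL1B had spans of 0.14 and 0.17 in LL. The limma test of a species difference in LL rhythm passed for neither gene (adjusted p = 0.708 for PGR5 and 0.658 for PGRL1B). It passed for 0% of all genes, with 1033 at unadjusted p under 0.05, so it does not show that the LL rhythms are equal. For PGR5 the difference in span was -0.75 log2 units.

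Set directly against LD, the PGR5 rhythm was smaller in LL in both species, with a difference in span of -3.06 log2 units in each. In F. bidentis the spans were 1.38 in LL and 4.44 in LD (limma, adjusted p = 0.0188), where 0.464% of all genes passed. In F. robusta they were 2.14 in LL and 5.19 in LD (adjusted p = 0.0262), where 27.9% did. Single omissions ended either call: adjusted p became 0.0558 to 0.063 in F. bidentis without LD1 ZT12, LD1 ZT16, LL1 ZT16 or LL2 ZT04, and 0.0563 to 0.0628 in F. robusta without LD1 ZT16, LL2 ZT04, LL2 ZT16 or LL3 ZT00. Without the averages of unusual composition the difference in F. robusta was -1.78 (adjusted p = 0.631). PGRL1B did not pass in either species (adjusted p = 0.36 and 0.666).

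By day, on LL day 2, PGR5 lay lower in the morning and higher at ZT08 than in LD. In F. bidentis it had 429.5, 332.5 and 292 RPM at ZT00, ZT04 and ZT08, against LD averages of 557, 526 and 163 RPM. In F. robusta it had 177.5, 179.5 and 148 RPM, against LD averages of 431, 394 and 96.8 RPM. In both species ZT00 and ZT04 lay below every LD value and ZT08 above. Averaged over these hours the change was -0.06 log2 units in F. bidentis (interval -0.62 to 0.50; limma, adjusted p = 0.932), where 2.12% of genes were higher and 1.22% lower. In F. robusta it was -0.59 (interval -1.29 to 0.11; adjusted p = 0.182), where 17.9% were higher and 2.1% lower (2432 and 285 genes, and 739 and 548 after TMM, with a median over all genes of 0.30 before and -0.00 after). That value became -0.94 after TMM (adjusted p = 0.0902), -0.25 without LL2 ZT00 (adjusted p = 0.556), -0.33 without LL2 ZT04 (adjusted p = 0.622), -1.19 without LL2 ZT08 (adjusted p = 0.00914) and -1.27 without LL2 ZT04 and LL2 ZT08 together, both of unusual composition (adjusted p = 0.00841). The difference between species, 0.53, did not pass (interval -0.40 to 1.47; adjusted p = 0.408), with 1.74% of genes more positive in F. bidentis and 5.47% less (236 and 742 genes, and 335 and 249 after TMM). It was 0.83 after TMM (adjusted p = 0.266) and 1.21 without the averages of unusual composition (adjusted p = 0.438), and single omissions took it from 0.084 (F. bidentis LL2 ZT08) to 1.13 (F. robusta LL2 ZT08). For PGRL1B the change was -0.30 in F. bidentis (adjusted p = 0.233) and 0.02 in F. robusta (adjusted p = 0.928; -0.33 after TMM).

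The other genes of cyclic electron flow were taken from lists of nuclear genes for the NDH complex and its assembly (22 of 23 tested, since CRR3 was at 0 in every F. bidentis average and at most 2 RPM in F. robusta) and for electron carriers and regulators (15 of 18 tested). All 22 NDH genes tested were higher in F. bidentis in LD, where 32.3% of all genes were, with a median of 1.33 log2 units against -0.00 over all genes. All 22 were also higher in LL (26% of all genes), with a median of 1.52 against -0.13. By adjusted p the LD differences were led by the subunit genes PNSB1 at 1.90 (SE 0.07), NDHN at 2.03 (SE 0.08), NDHU at 1.76 (SE 0.07) and PNSL3 at 1.61 (SE 0.08). PNSB1 had 905.5 to 1320 RPM over LD in F. bidentis and 227.5 to 373.5 RPM in F. robusta. The widest differences, picked out after the values were seen, were 2.17 for CRR7 (SE 0.13) and 2.15 for CRR1 (SE 0.12), both assembly factors, and the narrowest was 0.43 for LHCA6 (SE 0.09), an antenna protein that joins NDH to photosystem I.

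**Figure D4:**
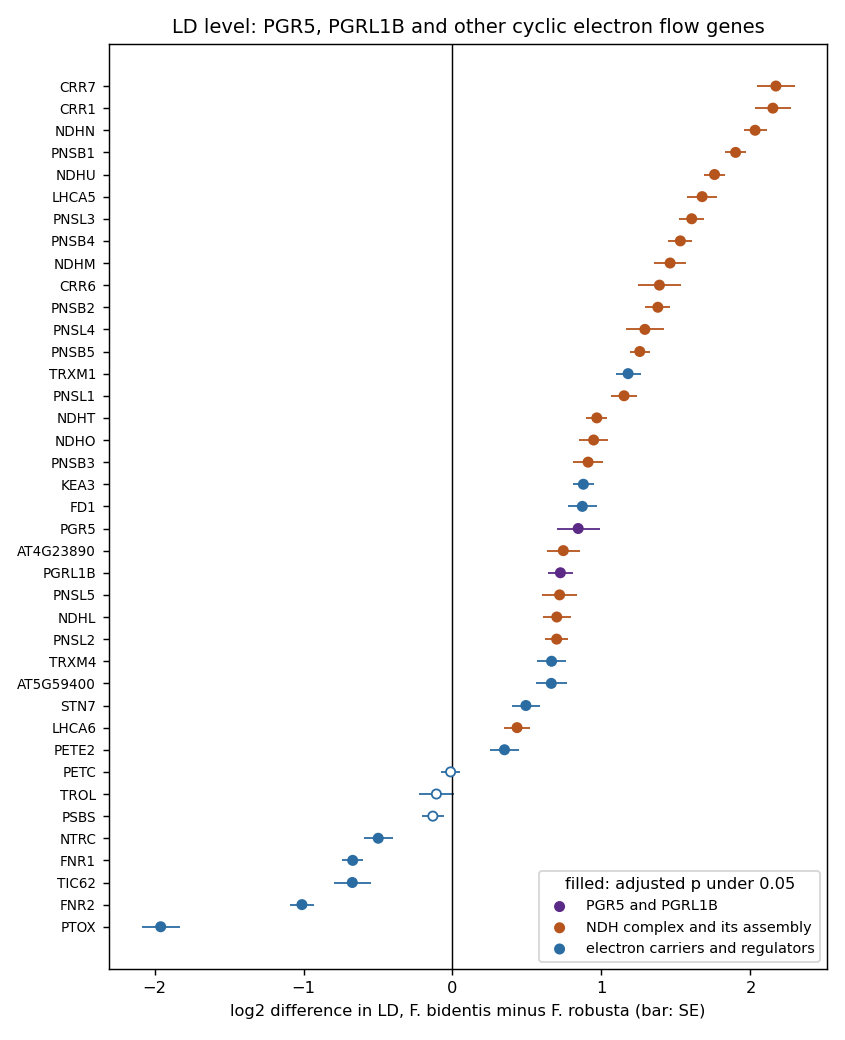
Log2 difference of the LD level (F. bidentis minus F. robusta over 12 matched time points, bars SE) for PGR5 and PGRL1B (purple), 22 NDH genes (orange) and 15 electron carrier and regulator genes (blue), ordered by size. Filled points passed limma's test at an adjusted p of 0.05; all NDH genes shown lie right of 0, and carriers and regulators on both sides, from 1.18 (TRXM1) to -1.96 (PTOX).

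Carriers and regulators went both ways, with 7 higher, 5 lower and 3 not passing in LD (median -0.01), beside 32.3% higher and 32.5% lower over all genes. Higher in F. bidentis were the chloroplast m-type thioredoxins TRXM1 at 1.18 (SE 0.08) and TRXM4 at 0.67 (SE 0.10), the thylakoid proton/potassium antiporter KEA3 at 0.88 (SE 0.07), the ferredoxin FD1 at 0.87 (SE 0.10), AT5G59400 at 0.66, the antenna kinase STN7 at 0.49 and plastocyanin PETE2 at 0.35. Lower were the plastid terminal oxidase PTOX at -1.96 (SE 0.13), the ferredoxin-NADP+ reductases FNR2 at -1.01 and FNR1 at -0.67, TIC62, which tethers that reductase, at -0.67, and the thioredoxin reductase NTRC at -0.50. The Rieske protein gene PETC (-0.01), TROL (-0.11) and PSBS (-0.13) did not pass. PTOX had 22 to 57.5 RPM over LD in F. bidentis, against 138 to 182 RPM in F. robusta. In LL the counts were again 7 higher and 5 lower, beside 26% higher and 41.8% lower over all genes. After TMM they were 7 and 4, beside 4794 higher and 4867 lower of 13563 genes, since NTRC no longer passed. NTRC stood at -0.35 as deposited (limma, adjusted p = 0.00064) and at -0.20 after TMM (adjusted p = 0.129).

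Of both lists, NDHT and AT5G59400 came nearest to the swing of PGR5 in LD. In F. bidentis 17 of 22 NDH genes and 8 of 15 carriers and regulators were rhythmic, beside 67.3% of all genes. Their median spans were 0.55 and 0.59 log2 units, against 0.80 over all genes. After TMM 12 and 12 were called, beside 5515 of 13563 genes, with medians of 0.49 and 0.82 against 0.56. In F. robusta 15 and 5 were rhythmic, beside 65.4% of all genes, with medians of 0.72 and 0.37 against 0.79. After TMM 14 and 7 were called there, beside 5677 genes, with medians of 0.81 and 0.77 against 0.55. NDHT, a subunit at the ferredoxin side of NDH, spanned 3.31 in F. bidentis (SE 0.24), against 3.51 in F. robusta (SE 0.23), and AT5G59400, to which the table gives no description, 2.78 (SE 0.21), against 2.37 (SE 0.20). NDHT measured 326, 208.5, 76.5, 33, 93.5 and 295.5 RPM over LD day 1 in F. bidentis, against 177.5, 120.5, 32, 12.5, 51 and 124.5 RPM in F. robusta. Its fitted peak was at 23.5 h in both species. That of AT5G59400 was at 23.3 h (F. bidentis) and 22.8 h (F. robusta). These genes alone of both lists were called at ZT08 against ZT04 (-1.68 for NDHT and -0.88 for AT5G59400) and at ZT20 against ZT16 (1.45 and 1.09). Among the others called, STN7 spanned 1.29, PSBS 1.03, PNSL2 0.95 and NDHO 0.90 in F. bidentis, and CRR6 1.55, NDHM 1.27, NDHO 1.12 and PSBS 1.10 in F. robusta.

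**Figure D5:**
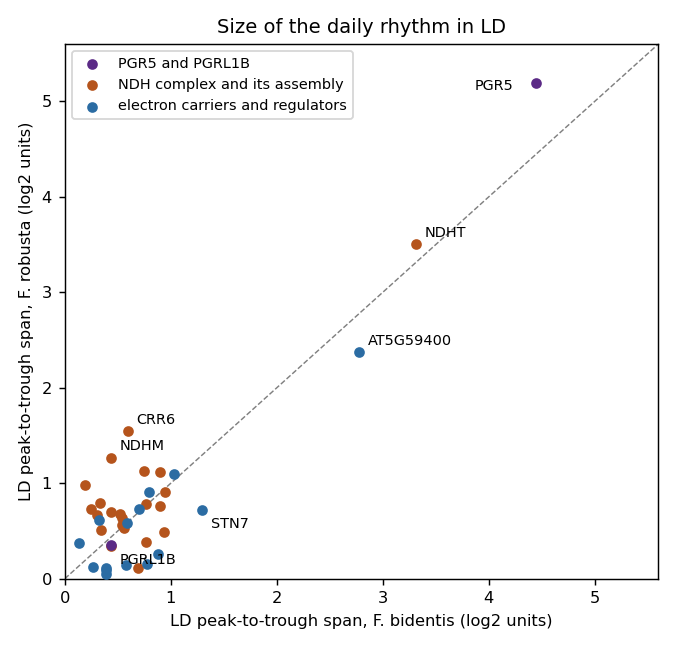
Fitted peak-to-trough span in LD in log2 units, F. bidentis on the horizontal and F. robusta on the vertical axis, for PGR5 and PGRL1B (purple), NDH genes (orange) and carriers and regulators (blue), with the dashed line marking equal spans. PGR5 lies at 4.44 and 5.19, NDHT at 3.31 and 3.51 and AT5G59400 at 2.78 and 2.37, and no other gene shown passes 1.55.

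In the lit nights part of both lists rose with PGR5 in F. bidentis. There 10 of 22 NDH genes rose and CRR6 fell (-0.37; limma, adjusted p = 0.0392), and 7 of 15 carriers and regulators rose and TIC62 fell (-0.61; adjusted p = 0.00188), with medians of 0.21 and 0.16 against -0.21 over all genes. Over all genes 5.54% rose and 35.4% fell. After TMM 19 and 10 rose and 0 fell in either list, beside 1997 of 13563 genes rising and 2071 falling. The medians were then 0.46 and 0.40, against -0.00 over all genes. The NDH genes were led by PNSB2 at 0.50 (SE 0.09; adjusted p = 0.000702), PNSL1 at 0.45, AT4G23890 at 0.48 and PNSB3 at 0.37. The carriers and regulators were led by PSBS, the photosystem II protein of heat dissipation, at 0.39 (SE 0.08; adjusted p = 0.00212), TRXM1 at 0.39 and FNR2 at 0.29. NDHT (0.25, adjusted p = 0.583) and AT5G59400 (0.12, adjusted p = 0.763) did not pass. In F. robusta 0 genes of either list passed by limma, as with PGR5 and PGRL1B, and PNSB2, STN7 and PSBS had an unadjusted p under 0.05. The test of a species difference passed for 0 genes of either list by limma, with 2 NDH genes and 1 carrier or regulator at unadjusted p under 0.05.

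On LL day 2 by day, the NDH genes PNSB3 (0.86), PNSL4 (0.76), PNSL5 (0.72) and PNSB2 (0.71) rose in F. bidentis with NTRC (0.64), of which PNSL5 and NTRC did not pass after TMM (adjusted p = 0.0741 and 0.0769). Over all genes 2.12% rose there, and in F. robusta 17.9% rose and 2.1% fell. In F. robusta PNSB5 rose (0.49) and LHCA6 (-0.86), CRR1 (-0.73), AT4G23890 (-0.67), TIC62 (-0.84) and PETE2 (-0.79) fell, of which PNSB5 and TIC62 did not pass after TMM (adjusted p = 0.508 and 0.0503). Without LL2 ZT04 and LL2 ZT08, NDHT alone of both lists passed in F. robusta, at -0.95 (adjusted p = 0.0159).

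AT5G59400 and PSBS, like PGR5, were called for a change in rhythm between LL and LD in both species, with smaller fitted spans in LL. Over all genes, 0.464% in F. bidentis and 27.9% in F. robusta were called for such a change. AT5G59400 spanned 0.89 in LL and 2.78 in LD in F. bidentis (limma, adjusted p = 0.0426), and 0.87 and 2.37 in F. robusta (adjusted p = 0.0199, and 0.0668 after TMM). PSBS spanned 0.15 in LL and 1.03 in LD in F. bidentis (adjusted p = 0.0463), and 0.22 and 1.10 in F. robusta (adjusted p = 0.0214). In F. bidentis TRXM4 (adjusted p = 0.0273), TRXM1 (0.0448), NDHT (0.0469) and STN7 (0.04998) passed after TMM only. NDHT and NDHM were called in F. robusta as deposited (adjusted p = 0.0449 and 0.0442) and not after TMM (0.0755 and 0.0968). Without the averages of unusual composition 0 genes of all those tested passed in F. robusta.

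Genes averaging 10 RPM or more and carrying a description, 7994 in all, were ranked by the smaller of their correlations with PGR5 or PGRL1B over the 25 time points of each species. The profiles most like PGR5 were those of AT1G77090, a PsbP family protein (Pearson's r of 0.984 in F. bidentis, 0.924 in F. robusta), the phosphoenolpyruvate/phosphate translocator PPT2 (AT3G01550; 0.895, 0.929), the hydrolase AT2G41250 (0.888, 0.923), the phosphate transporter PHT2;1 (AT3G26570; 0.884, 0.911) and the methionine sulfoxide reductase MSRB1 (AT1G53670; 0.930, 0.873). NDHT ranked 33 (0.857, 0.768) and PGRL1B 3637 (0.325, -0.53). The profiles most like PGRL1B were less close, with the hydrolase AT1G52510 (0.729, 0.648), the synthetase family protein AT5G63380 (0.644, 0.680), the glutamine synthetases AT1G66200 (0.666, 0.642) and AT1G48470 (0.653, 0.618), and thioredoxin f1 (AT3G02730; 0.716, 0.620). The glutamine synthetases belong to a multigene family whose reads could be split between copies. Time points share scaling and a daily cycle, so these values describe likeness only.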

How the data were processed

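RNA of mature leaves was sequenced from 2 biological replicates at 25 time points in each of 2 species (100 libraries in 50 groups, per the labels). The deposited table gives RPM, which the authors averaged over the libraries of a time point, per the file headers, and these averages come in steps of 0.5. The submitters' processing notes name CASAVA and TAIR10 without roles. How Flaveria reads were aligned and assigned to Arabidopsis genes is not given in the sources used here, so close paralogs such as PGRL1A and PGRL1B may share reads. Another 200 columns of values per library match no sample title and were not used, so depth per library is unknown here and no interval is given for a single average.

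Log2(RPM + 1) was fitted in R 4.3.3 with limma 3.58.1 (eBayes with trend and robust, statmod 1.5.0) over 13563 genes averaging at least 1 RPM, Benjamini-Hochberg adjusted, threshold 0.05. Fold changes are on this scale and understate the change of low genes. Rhythms were F tests of a 24 h cosine and sine beside a linear trend, and differences in rhythm were tested as products with species or regime. Each test of a difference in rhythm thus joins span and peak time. Levels used matched time points. Nights (ZT12, ZT16, ZT20) and days (ZT00, ZT04, ZT08) were compared within the hour. Contrasts are two-sided. The fits were tested on simulated data with independent noise and effects of fixed size. These data held no shift in composition shared by the genes of an average, so they cannot show how such shifts move the calls. To 16 comparisons, 2 were added after seeing the data (ZT08 against ZT04, ZT20 against ZT16). Alternatives were TMM factors (trimming 30% of M and 5% of A), 0.1 as pseudocount, filters at 0 and 5 RPM, no trend, added 12 h terms, LL from ZT12 of day 1, no time point term, each average left out in turn, and, added after seeing the data, the omission of 6 F. robusta averages. The genes and lists were chosen with earlier results of these data known. Of each list, up to 4 called genes were named per comparison by smallest adjusted p, with any that moved against the others, and further genes were named after their values were seen. No sequences are shown.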

Additional observations from a re-analysis of the deposited data

Results flagged for a closer look

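For 4 genes of the lists the LD rhythm differed between the species by limma's test of the difference itself (adjusted over all genes). These are 3 of 22 NDH genes and 1 of 15 carriers and regulators, where 9.03% of all genes passed, so the counts do not set the lists apart. NDHM, an NDH subunit gene, had a span of 0.43 log2 units for F. bidentis against 1.27 for F. robusta, a difference of -0.83 (adjusted p = 0.00262). PTOX, the plastid terminal oxidase gene, had spans of 0.88 and 0.26 in these species, a difference of 0.62, with peaks at 10.5 and 22.9 h (adjusted p = 0.00803). After TMM its spans were 0.82 and 0.72, a difference of 0.10, with peaks at 7.99 and 2.15 h (adjusted p = 0.0128). The test takes span and peak time together. NDHO, another subunit gene, had spans of 0.90 and 1.12, a difference of -0.22, with peaks at 16.5 and 19.4 h (adjusted p = 0.0216; -0.53 and 0.106 after TMM). CRR1 had spans of 0.56 and 0.53 as deposited, a difference of 0.028, with peaks at 15.1 and 23.7 h (adjusted p = 0.0444). After TMM its spans were 0.037 and 0.98, a difference of -0.94 that did not pass (adjusted p = 0.0874).

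For 5 genes the change from LD daytime to the daytime of LL day 2 differed between the species, each more positive in F. bidentis, where 1.74% of all genes were more positive. The differences were 1.19 log2 units for PETE2 (adjusted p = 0.0252), 0.98 for AT4G23890 (adjusted p = 0.0328), 1.15 for PNSL4 (adjusted p = 0.0328), 0.99 for CRR1 (adjusted p = 0.0343) and 1.06 for PNSB3 (adjusted p = 0.0362). PETE2 changed by 0.40 in F. bidentis, against -0.79 in F. robusta. Without LL2 ZT04 and LL2 ZT08 of F. robusta, both of unusual composition, none of these 5 passed (adjusted p = 0.526 for PETE2, 0.572 for AT4G23890, 0.783 for PNSL4, 0.713 for CRR1 and 0.745 for PNSB3). PGR5 and PGRL1B met neither of these criteria.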

How the results depend on the processing

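The LD rhythm of PGR5 and the higher LL level of both genes in F. bidentis kept direction and call under every alternative run, as did the PGR5 changes between ZT04 and ZT08 and between ZT16 and ZT20. Of PGR5 and PGRL1B, the number called rhythmic in LD in F. bidentis was 1 as reported and 2 after TMM, with 0.1 as pseudocount, with filters at 0 and 5 RPM, without the trend and with 12 h terms, since PGRL1B crossed the threshold. The number called for a change in rhythm in LL in F. robusta was 1. It was 0 without the trend (limma, PGR5 adjusted p = 0.0515) or without the averages of unusual composition. The number higher in LD in F. bidentis was 2, and 1 with no time point term. The number higher in lit nights in F. bidentis was 1, and 2 after TMM. The number changed on LL day 2 in F. robusta was 0, and 1 without the averages of unusual composition.

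With each average left out in turn these numbers ran between 1 and 2 for the LD rhythm in F. bidentis, between 0 and 1 for LL against LD rhythm in each species, and between 0 and 1 for LL day 2 in F. robusta. After TMM PGRL1B turned in sign for the species difference in LL rhythm (0.10, as deposited -0.037) and for LL day 2 in F. robusta (-0.33, as deposited 0.022). Uncalled values turned in sign with single omissions as follows. PGRL1B ran between -0.14 and 0.042 for the LL rhythm difference, between -0.027 and 0.067 for lit nights in F. robusta, between -0.026 and 0.068 for their species difference, between -0.020 and 0.083 for LL day 2 in F. robusta and between -0.082 and 0.086 at ZT20 against ZT16. PGR5 ran between -0.51 and 0.23 for LL day 2 in F. bidentis, an average over hours that moved in opposite directions. There it stood at 0.77 times its LD average at ZT00, 0.63 times at ZT04 and 1.79 times at ZT08. The cause of the other turns in sign was not tested.

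Counts over all genes moved more. After TMM 5515 (F. bidentis) and 5677 (F. robusta) genes were rhythmic in LD, against 9130 and 8875 as deposited. LL against LD rhythm gave 63 genes in F. bidentis, with 150 after TMM, 184 at 5 RPM, 662 without the trend, 112 with 12 h terms and 0 to 1844 with single omissions. In F. robusta it gave 3785, with 486 after TMM, 573 without the trend, 0 without the averages of unusual composition and 661 to 6046 with single omissions. Lit nights in F. robusta gave 856 (552 after TMM, 228 without those averages, 131 to 2676 with single omissions) and their species difference 140 (273, 86, 86 to 218). LL day 2 gave 454 in F. bidentis (296 with no filter, 58 to 873 with single omissions), 2717 in F. robusta (1287 after TMM, 840 without those averages, 229 to 6981) and 978 for the species difference (584, 39, 41 to 5095). ZT08 against ZT04 gave 1126 (623 with no filter, 634 to 1361 with single omissions) and ZT20 against ZT16 579 (369 after TMM, 203 to 703 with single omissions). Without F. bidentis LL2 ZT08, 15 genes were rhythmic in LL in that species and 5 differed between species, against 0.

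No paired analysis was possible because the columns used are the authors' averages over libraries and carry no replicate number. Depth per library is unknown, so no limit can be set for single low values such as the 14 RPM of PGR5 in F. robusta.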
